A study of Mus musculus with 21 samples.

Results

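The 8 genes described here encode the signalling core that interleukin 2 (IL-2) and interleukin 15 (IL-15) share: the receptor chains Il2ra, Il2rb, Il2rg and Il15ra, the kinases Jak1 and Jak3, and the transcription factors Stat5a and Stat5b. They were chosen by symbol, and all 8 were among the 17516 gene symbols of each deposited table. The libraries hold RNA of single mouse CD8 T cells labelled OT1, a line whose transgenic receptor recognises an ovalbumin peptide. There were 21 libraries, 1 per condition and none repeated. Untreated naive cells were taken on day 0. All other cells had been activated on day 0 by beads coated with CD3 and CD28 antibodies. Of these, 2 libraries had no added cytokine and were taken on days 3 and 5. The other 18 libraries held cells grown with 5 or 50 IU/mL of IL-15, of IL-2 or of its variant IL-2v, which the labels call mutant IL-2bg, and were taken on days 3, 5 and 10. The number of mice behind a library, their age and any pooling are not given in the sources used here. For 6 libraries the treatment label and the title disagree on the cytokine, and the title was followed: interleukin-3 is named for the IL-2 libraries at the higher dose, and interleukin-16 for the IL-15 ones.

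In T cells the beta chain (Il2rb) and the common gamma chain (Il2rg) together bind IL-2 or IL-15 and pass the signal on. The alpha chain (Il2ra, also called CD25) raises the affinity for IL-2, and Il15ra is the alpha chain for IL-15, which can present the cytokine to a neighbouring cell. Jak1 docks on the beta chain and Jak3 on the gamma chain. They phosphorylate STAT5, which enters the nucleus and binds target genes, and Il2ra is itself a well-known STAT5 target in T cells. The gamma chain also serves the receptors for interleukins 4, 7, 9 and 21.

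By GENCODE positions on GRCm38, the assembly also called mm10, Il2ra lies at chr2:11642807-11693193 on the plus strand and Il15ra close by at chr2:11705290-11734317, also on the plus strand. Il2rb lies at chr15:78479256-78495271 and Il2rg at chrX:101264378-101268255, both on the minus strand. Jak1 is at chr4:101152367-101265282 (minus) and Jak3 at chr8:71676296-71690575 (plus). Stat5b, at chr11:100780731-100850724 (minus), and Stat5a, at chr11:100859351-100885169 (plus), are neighbours. Some levels are uncertain because sequence is shared. Stat5a had 6.83% of its 60-base runs in common with Stat5b, and Stat5b had 9.21% in common with Stat5a. Of the exonic bases of Il2rg, 30.5% overlapped the annotated gene Gm20489 on the same strand, and 7.55% of those of Jak3 overlapped Insl3. How the counting treated such reads is not given in the sources used here, so part of the reads of these 4 genes may be missing or misplaced.

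The RefSeq promoter table (GRCm38.p6) held 10 promoters of 7 of the 8 genes. The 250 bases before the start of Il2ra and Il2rg are shown because these chain genes ran in opposite directions across the libraries, Il2ra at chr2:11642542-11642791 on the plus strand and Il2rg at chrX:101268256-101268505 on the minus strand. Capitals mark matches to the NF-kB motif, a motif chosen after this sequence had been seen.
Il2ra: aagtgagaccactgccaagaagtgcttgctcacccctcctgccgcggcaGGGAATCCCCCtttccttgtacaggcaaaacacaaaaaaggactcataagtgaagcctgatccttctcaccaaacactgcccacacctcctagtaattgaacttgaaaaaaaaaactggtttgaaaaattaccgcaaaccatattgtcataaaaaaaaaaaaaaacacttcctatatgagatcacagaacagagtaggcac
Il2rg: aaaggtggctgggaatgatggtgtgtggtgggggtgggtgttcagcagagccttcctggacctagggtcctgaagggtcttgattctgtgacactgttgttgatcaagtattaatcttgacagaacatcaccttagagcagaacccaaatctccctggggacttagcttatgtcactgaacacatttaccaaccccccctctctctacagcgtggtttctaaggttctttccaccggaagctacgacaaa
The Il2ra promoter held 2 overlapping matches to the NF-kB motif, starting at -201 and -200 from the start. Of the 10 promoters, 2 held this motif on either strand, against 8.46% of 32851 promoters in the table. The STAT motif TTCNNNGAA, which reads the same on both strands, was in 0 of the 10, against 8.30% of all. The AP-1 motif TGANTCA, also the same on both strands, was in 1 of the 10, an Il15ra promoter, at -30, against 7.81% of all. The motif search covered the 250 bases before each start and the 50 bases after it. A match describes letters in this window and is not evidence of binding.

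After filtering, 3250 to 7105 cells and 10589950 to 32648496 unique molecular identifiers (UMIs, each marking 1 captured RNA molecule) remained per library, with a median of 3016 to 5065 UMIs per cell. Levels are given as CPM, the count scaled to a common total of summed UMIs, with exact Poisson 95% intervals. Shares of cells with member UMIs are given with exact Clopper-Pearson 95% intervals after thinning each cell to 2000 UMIs, unless marked otherwise. Cells with fewer UMIs were left out of the thinned shares. They numbered from 57 on day 10 with 5 IU/mL IL-15 to 393 of 3250 on day 5 with 50 IU/mL IL-2. With 1 library per condition these intervals cover counting error only, there is no replicate error and no test, and fewer cells of a kind cannot be told apart from less RNA per cell. The marker and division gene shares that follow are of all kept cells at full depth, without intervals, so they also depend on depth. The T cell gene Cd3d was detected in 93.0% to 99.5% of cells, Cd8b1 in 54.5% to 92.0% and Cd8a in 37.0% to 74.2%. Cd8a was lowest on day 5 with 50 IU/mL IL-2. Foxp3, which defines the regulatory T cells that carry Il2ra at rest, was in at most 0.147% of cells and Cd4 in at most 1.49%, while Ikzf2, found in regulatory and other T cells, ranged from 2.44% to 42.4%. The natural killer gene Ncr1 was in at most 0.0157% of cells, and Klrb1c in up to 13.0%. The B cell gene Ms4a1 was in at most 0.0209% of cells, and the myeloid gene Lyz2 in at most 0.126%. Of the other genes on those 2 lists, Cd79b was in up to 7.45% of cells (day 3 with 5 IU/mL IL-15). Fcer1g was in 17.7% of cells on day 10 with 50 IU/mL IL-2, in 7.58% on day 10 with 50 IU/mL IL-2v and in at most 2.87% elsewhere. Without cells that had a Foxp3 UMI, Cd4 but neither Cd8a nor Cd8b1, or at least 2 B cell, myeloid or erythroid markers, which were at most 0.795% of a library, the number of members called was the same in each of the 13 comparisons. Cells with Cd79b or Fcer1g as their single such marker stayed in, and their part in the results was not tested. The share of cells with a UMI of the division genes Mki67 or Top2a ran from 3.01% on day 0 to 86.9% in the 50 IU/mL IL-2v library of day 3. Its part in the results was not tested beyond the values without such cells. Between any 2 libraries, 1 to 19 cell barcodes were shared.

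Il2ra was the member that varied most. It was at 5.63 CPM (4.60 to 6.82) in untreated day 0 cells and at 149 CPM on day 3 and 34.0 CPM on day 5 without cytokine. With 5 IU/mL IL-2 it stood at 264, 78.3 and 106 CPM on days 3, 5 and 10, and with 50 IU/mL IL-2 at 869, 330 and 300 CPM. The IL-2v libraries had 235, 126 and 81.5 CPM at 5 IU/mL and 594, 430 and 117 CPM at 50 IU/mL on the same days. IL-15 gave 197, 50.8 and 16.4 CPM at the lower dose and 257, 111 and 57.2 CPM at the higher. The top 5 places were held by 50 IU/mL libraries of IL-2 or IL-2v, the highest was day 3 with 50 IU/mL IL-2, and day 0 and day 10 with 5 IU/mL IL-15 were lowest, a 154-fold range. For 3 of the 20 pairs of neighbours in the order, the exact 95% counting interval of their fold included 1.

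**Figure D1:**
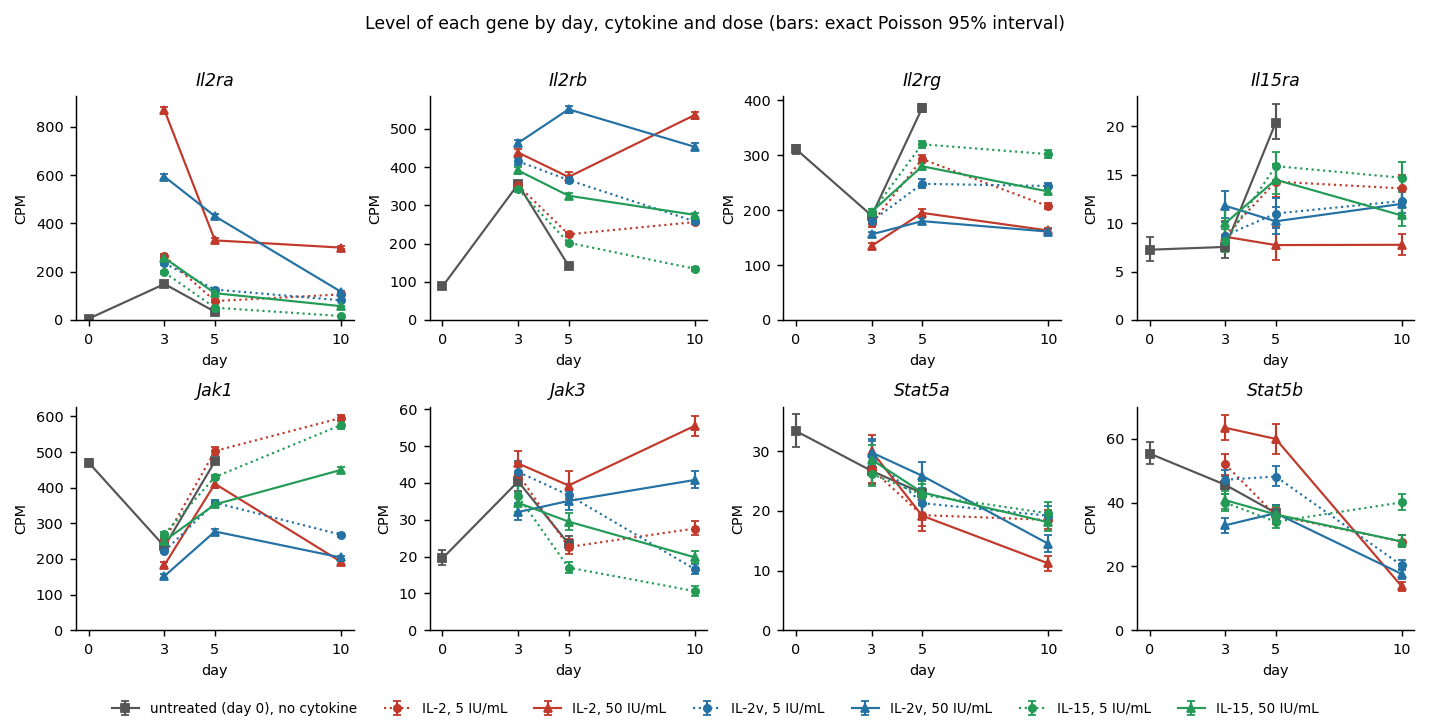
Level of each gene (CPM, linear axis from 0) by day of culture. Each point is 1 library, bars are exact Poisson 95% intervals, grey squares are untreated and no-cytokine cells, colours are cytokines, dotted lines 5 IU/mL and solid lines 50 IU/mL. Il2ra peaks at 869 CPM on day 3 with 50 IU/mL IL-2, while Il2rg is highest, 386 CPM, on day 5 without cytokine.

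Comparisons between conditions used the log2 difference of log2(CPM + 1). A gene was tested where its mean reached 20 CPM in either arm, and called where every pair of libraries had the same sign and the median difference was at least 1 in size, which is 2-fold. Pairs at other days or doses are not replicates of a condition. The share of all genes that keep 1 sign in every pair was not computed. A sign kept without a call is therefore given as description only. Where a comparison has 1 pair, a call is a 2-fold difference between 2 libraries. Comparisons with the same arm share libraries: the IL-2, IL-2v and IL-15 comparisons against no cytokine share both no-cytokine libraries, and each cytokine serves in 2 of the 3 comparisons between cytokines. Over all genes tested, the median log2 difference lay between -0.11 and 0.10 in the 13 comparisons except IL-2v against no cytokine, where it was 0.17 (-0.03 when libraries were scaled by the trimmed mean of M values, TMM).

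Activated cells without cytokine had higher CPM of 3 members on day 3 than untreated cells. CPM is relative to all UMIs of a library, so the amount of RNA per cell was not measured. From day 0 to day 3, Il2ra was 26.5-fold higher (21.8 to 32.5), Il2rb went from 87.6 to 355 CPM, a log2 difference of 2.01, and Jak3 from 19.5 to 40.4 CPM, a difference of 1.01. These 3 of the 7 members tested were called higher, against 11.1% of all 6171 genes tested. The call on Jak3 sat at the limit and was lost, at 0.86, among cells without a Mki67 or Top2a UMI. None was called lower, against 8.31% of all genes. Jak1 lay just short of the limit, at 470 CPM on day 0 and 235 CPM on day 3, and Il2rg went from 311 to 190 CPM (-0.71), while Stat5a and Stat5b differed by -0.31 and -0.28. Beside this, the share of cells with a division UMI was 3.01% on day 0 and 60.0% on day 3.

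From day 3 to day 5 without cytokine, Il2ra (34.0 against 149 CPM, -2.10) and Il2rb (142 against 355 CPM, -1.32) were called lower, against 9.47% of 5785 genes. Il2rg (386 against 190 CPM, 1.02), Il15ra (20.4 against 7.55 CPM, 1.33) and Jak1 (474 against 235 CPM, 1.01) were called higher, against 3.61%, so 5 of 8 members tested were called. The 386 CPM of Il2rg and the 20.4 CPM of Il15ra were their highest levels in the 21 libraries. The share of cells with a division UMI was 13.8% on day 5. Among cells without such a UMI, Il2rg differed by 0.89 and Jak1 by 0.72, below the limit. With a pseudocount of 10 CPM the 3 higher calls were lost (Il2rg 0.98, Il15ra 0.79 and Jak1 0.98), and Jak1 also lost its call with the mean CPM of single cells (0.95). Jak3 (-0.76), Stat5a (-0.21) and Stat5b (-0.30) were not called.

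Each cytokine was then set against the no-cytokine library of the same day, in 4 pairs. With IL-2, Il2ra was called higher at a median of 1.86 (range 0.82 to 3.24), which left 1 of 7 members tested against 1.77% of 5752 genes higher and 0 against 0.800% lower. With IL-2v, Il2ra was called higher at 1.92 (0.65 to 3.62), against 6.25% of 6014 genes higher and 0 members against 1.05% lower. With IL-15, Il2ra was higher in 4 of 4 pairs but its median of 0.67 (0.40 to 1.68) missed the limit. No member was called there, against 0.377% of 5576 genes higher and 0.0538% lower. For each cytokine and dose, the difference was larger on day 5 than on day 3. On day 5 with 50 IU/mL, Il2ra was 12.6-fold (11.8 to 13.6) above no cytokine with IL-2v, 9.70-fold (9.01 to 10.5) with IL-2 and 3.26-fold (3.02 to 3.52) with IL-15.

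Without the day 3 pairs, 1 further member passed in each comparison against no cytokine. Il2rb was then higher with IL-2 at 1.02 and with IL-2v at 1.65, and Il2ra with IL-15 at 1.12. Il2rb had started from 142 CPM on day 5 without cytokine and stood, at the lower and higher dose, at 224 and 374 CPM (IL-2), 366 and 551 CPM (IL-2v), and 202 and 325 CPM (IL-15). The 6 cytokine libraries of day 5 were thus above the library without it. On day 3, where no cytokine gave 355 CPM, the 6 values were 342 to 463 CPM. Il2rg ran the other way, from 386 CPM without cytokine on day 5 down to 195 CPM for IL-2 and 180 CPM for IL-2v, each at 50 IU/mL. It was lower in 4 of 4 pairs with IL-2 (median -0.45) and with IL-2v (-0.46), short of the limit. Also short of it, Il2rb was higher (0.87) and Jak1 lower (-0.52) in 4 of 4 pairs with IL-2v, and Stat5b lower in 4 of 4 with IL-15 (-0.13).

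The question of how IL-2v compares with IL-2 at equal day and dose was met in 6 pairs. No member was called, against 1.04% of 5839 genes higher and 0.274% lower with IL-2v. For Il2ra the sign depended on the day. The level with IL-2v was below that with IL-2 on day 3 (235 against 264 CPM and 594 against 869 CPM) and day 10 (81.5 against 106 CPM and 117 against 300 CPM). On day 5 it was above (126 against 78.3 CPM and 430 against 330 CPM). The counting intervals of the fold excluded 1 in each of the 6 pairs, from 0.391-fold (0.375 to 0.407) on day 10 at 50 IU/mL to 1.61-fold (1.51 to 1.72) on day 5 at 5 IU/mL. Whether the days differ beyond replicate error was not tested.

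**Figure D2:**
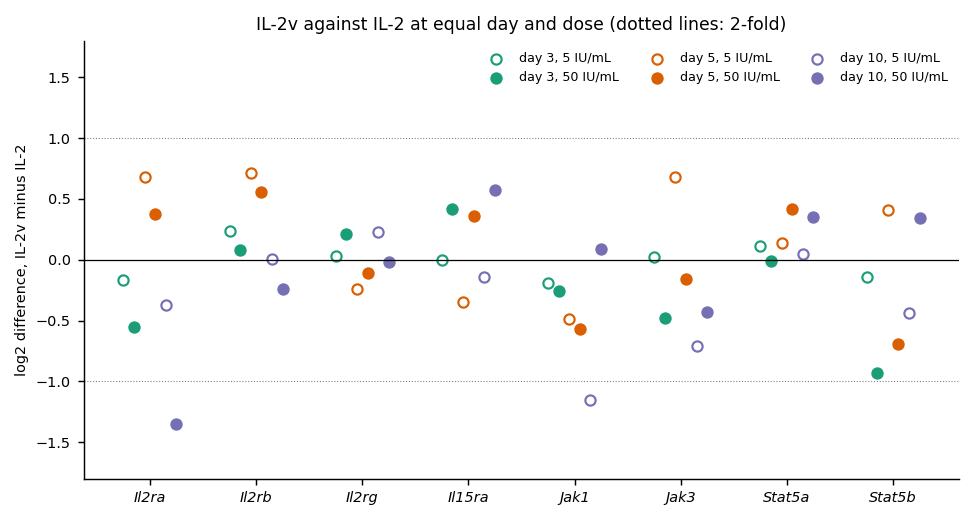
Log2 difference of each gene, IL-2v minus IL-2, in the 6 pairs of equal day and dose, 1 point per pair, coloured by day (open, 5 IU/mL; filled, 50 IU/mL; dotted lines mark 2-fold). Il2ra points lie below 0 on days 3 and 10 and above 0 on day 5, from -1.35 to 0.68.

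Among the other members of that comparison, Il2rb was higher with IL-2v in 5 of 6 pairs (median 0.16) and Jak1 lower in 5 of 6 (median -0.38). The largest gap of Jak1 was on day 10 at 5 IU/mL, 268 CPM with IL-2v against 596 CPM with IL-2, a difference of -1.15. Il2rg had a median of 0.01 and a range of -0.24 to 0.23. Stat5a stayed between -0.01 and 0.42. Stat5b ranged from -0.93 to 0.41, with 32.9 CPM against 63.5 CPM on day 3 at 50 IU/mL as the largest gap.

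IL-15 differed from both forms of IL-2 in 1 member that passed the limit. Il2ra was lower with IL-15 than with IL-2 in 6 of 6 pairs (median -1.66, range -2.61 to -0.42), 1 of 7 members tested against 1.70% of 5718 genes lower, and 0 members against 0.490% higher. It was higher with IL-2v than with IL-15 in 6 of 6 pairs (median 1.25, range 0.26 to 2.25), against 2.48% of 5810 genes higher, and 0 members against 0.585% lower. Against IL-2 the widest gaps were on day 10. At 5 IU/mL the Il2ra level in the IL-15 library was 0.155-fold (0.139 to 0.173) that in the IL-2 library. Il2rb, Il2rg and Jak3 kept a sign in all 6 pairs of IL-15 against IL-2 without reaching the limit. Il2rb had a median of -0.18 and Jak3 of -0.40, and Il2rg of 0.52. For IL-2v against IL-15, Il2rb (median 0.74) was higher and Jak1 (-0.53) and Il2rg (-0.35) lower in 6 of 6 pairs, also short of the limit. On day 10 Jak3 stood at 10.6 CPM with 5 IU/mL IL-15 against 27.6 CPM with IL-2, and at 19.8 against 55.5 CPM with 50 IU/mL, the largest gaps of that gene between these cytokines.

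The higher dose came with more Il2ra for each cytokine. From 5 to 50 IU/mL the median difference over 3 days was 1.71 with IL-2 (range 1.50 to 2.06), 1.33 with IL-2v (0.52 to 1.76) and 1.11 with IL-15 (0.39 to 1.74), and Il2ra was the member called in each. Against this, 4.29% of 5879 genes were called higher and 2.70% lower with IL-2, 2.38% of 5913 higher and 0.626% lower with IL-2v, and 0.869% of 5523 higher and 0.181% lower with IL-15. No member was called lower. Single days decided 2 of these calls: the IL-2v median was 0.93 without day 5, and the IL-15 median 0.75 without day 10 and 0.97 with TMM scaling. With IL-2 the fold was 3.29 (3.18 to 3.40) on day 3, 4.22 (3.97 to 4.48) on day 5 and 2.84 (2.73 to 2.96) on day 10. The dose fold of IL-15 was 1.31-fold (1.26 to 1.36) on day 3, 2.19-fold (2.05 to 2.33) on day 5 and 3.49-fold (3.12 to 3.91) on day 10. With IL-2v it was 2.53-fold (2.45 to 2.61), 3.41-fold (3.25 to 3.57) and 1.44-fold (1.36 to 1.51).

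Il2rb was also higher at 50 IU/mL in 9 of 9 dose pairs, with medians of 0.74 (IL-2), 0.59 (IL-2v) and 0.68 (IL-15), and Jak1 was lower in 9 of 9, with medians of -0.47, -0.39 and -0.28. Neither passed the limit. The widest dose gap of Jak1 was on day 10 with IL-2, 192 CPM at 50 IU/mL against 596 CPM at 5 IU/mL, and without day 5 its IL-2 median was -1.05. Il2rg was lower at the higher dose in 8 of 9 pairs, the exception being day 3 with IL-15, 197 against 196 CPM. Jak3 gave 40.8 against 16.6 CPM on day 10 with IL-2v, the largest of its dose differences at 1.25, and 32.1 against 43.0 CPM on day 3 with IL-2v. At the higher dose Jak3 was higher in 3 of 3 pairs with IL-2 (median 0.77), and Stat5b lower in 3 of 3 with IL-2v (-0.38), neither called.

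Over time in the cytokine libraries, Il2ra was called lower on day 5 than on day 3 in 6 pairs of equal cytokine and dose (median -1.30, range -1.93 to -0.47). This was 1 of 7 members tested, against 2.22% of 5912 genes lower, and 0 members against 0.829% higher. Jak1 (median 0.77) and Il2rg (0.52) were higher on day 5 in 6 of 6 pairs and Stat5a (-0.37) lower in 6 of 6, short of the limit. From day 5 to day 10 no member was called, against 0.0705% of 5676 genes higher and 1.62% lower. Il2rg was lower in 6 of 6 of these pairs (median -0.21). Il2ra was lower in 5 of 6 (median -0.78), the exception being 5 IU/mL IL-2 at 106 against 78.3 CPM. With 50 IU/mL it was lower on day 10 at 300 against 330 CPM with IL-2 and at 117 against 430 CPM with IL-2v.

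The STAT5 genes were lowest in the day 10 libraries with 50 IU/mL of IL-2 or IL-2v. The higher dose did not go with lower levels throughout: with IL-2, Stat5b was higher at 50 IU/mL in 2 dose pairs and lower in 1. Stat5a ran from 11.2 to 33.4 CPM over the 21 libraries, with a median of 23.0 CPM, and Stat5b from 13.7 to 63.5 CPM, with a median of 36.8 CPM. Both had their lowest level on day 10 with 50 IU/mL IL-2 and their next lowest on day 10 with 50 IU/mL IL-2v, 14.5 CPM for Stat5a and 17.6 CPM for Stat5b. Stat5b was highest on day 3 with 50 IU/mL IL-2 and stood at 60.0 CPM with that dose on day 5 and at 13.7 CPM on day 10. Stat5a was highest in untreated cells. From day 5 to day 10 the median difference was -0.26 for Stat5a, lower in 6 of 6 pairs, and -0.70 for Stat5b, lower in 5 of 6. In the order of levels, the counting interval of the fold between neighbours included 1 in 18 of 20 pairs for Stat5a and 15 of 20 for Stat5b.

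Il15ra was scarce. It ran from 7.26 to 20.4 CPM, with a median of 10.8 CPM, and the counting interval of the fold between neighbours in its order included 1 in 19 of 20 pairs. It reached the level for testing in 1 comparison, day 5 against day 3 without cytokine. A UMI of Il15ra was seen in 1.16% to 4.05% of thinned cells, the highest share being day 5 without cytokine.

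Cell by cell, the share with an Il2ra UMI went from 1.01% (0.735% to 1.34%) of untreated day 0 cells to 75.3% (73.8% to 76.7%) on day 3 with 50 IU/mL IL-2. On day 3 the share was 23.6% without cytokine, and, at 50 IU/mL, 62.9% for IL-2v and 34.4% for IL-15. On day 10 it was 40.4%, 19.7% and 10.1% at 50 IU/mL for IL-2, the variant and IL-15, in that order, and 3.15% for the lower dose of IL-15. The shares had non-overlapping intervals in 18 of 18 pairs of cytokines at equal day and dose and in 9 of 9 dose pairs, each higher at 50 IU/mL. Among cells without a Mki67 or Top2a UMI, these counts were 17 of 18 and 8 of 9. The cytokine count was also 17 of 18 with thinning to 1000 UMIs and without cells over 2 times the median UMIs. Leaving out cells with markers of other types gave 17 of 18 too. How often other genes differ in this way was not computed. Cells with 3 or more Il2ra UMIs were 27.4% of the day 3 library at 50 IU/mL IL-2, and 15.7% and 3.05% of those with the same dose of IL-2v or IL-15. No cell type that lacks Il2ra was present to set a level for free RNA, so the part of free RNA in the lowest share, 1.01%, was not tested. Unthinned, the shares ran from 1.55% to 90.5% in the same 2 libraries.

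**Figure D3:**
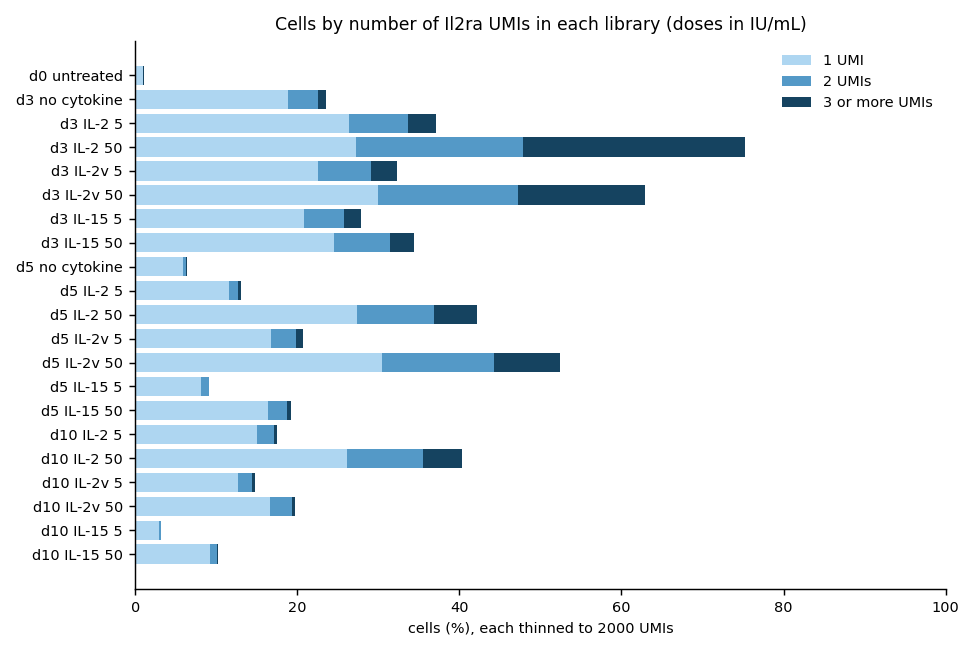
Share of cells (%) with 1, 2 or 3 or more Il2ra UMIs in each library, among cells of at least 2000 UMIs, each thinned to 2000. The longest bar, 75.3%, is day 3 with 50 IU/mL IL-2, where 27.4% of all thinned cells of the library had 3 or more UMIs. The shortest, 1.01%, is day 0.

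The balance of the chains changed with activation. The number of Il2ra UMIs per Il2rb UMI, compared between libraries and not corrected for transcript length, was 0.0643 on day 0, 0.420 on day 3 without cytokine, and at 50 IU/mL on that day 1.98 (IL-2), 1.28 (IL-2v) and 0.659 (IL-15). By day 10 it was 0.559, 0.258 and 0.208 for the same dose of these 3, in that order. The number of Il2rg UMIs per Il2rb UMI went the other way, from 3.55 on day 0 and 2.72 on day 5 without cytokine to 0.308 on day 3 and 0.304 on day 10 at the higher dose of IL-2.

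UMIs of the 3 IL-2 receptor chain genes together were seen in 0.134% of day 0 cells, 3.37% on day 3 without cytokine and 10.5% both in the 50 IU/mL IL-2 library of day 3 and in the 50 IU/mL IL-2v library of day 5. Cells with Il2rb and Il2rg UMIs but no Il2ra UMI, the pair that signals without the alpha chain, were 12.5% on day 3 without cytokine and 3.02% on day 3 with 50 IU/mL IL-2. In the IL-15 libraries at 50 IU/mL they were 11.5%, 14.4% and 12.8% on days 3, 5 and 10. These shares split the cells with Il2rb and Il2rg UMIs by Il2ra detection, so their balance follows the share with an Il2ra UMI. At 2000 UMIs per cell a gene can be expressed and give no UMI, so cells counted as lacking Il2ra include cells whose Il2ra RNA was missed. Likewise, the shares with all 3 chain genes leave out cells in which RNA of any chain was missed. On day 3 without cytokine an Il2ra UMI was seen in 23.6% of thinned cells and in 43.7% of cells at full depth. Il2rb was seen more often in cells with an Il2ra UMI than in cells without, by non-overlapping intervals, in 5 of 21 libraries and less often in 0. The widest gap was on day 0, where 40.0% (25.7% to 55.7%) of the 45 cells with an Il2ra UMI also had Il2rb, against 13.2% (12.3% to 14.3%) of the other 4426. The share of all genes that differ by Il2ra detection was not computed, so whether this is particular to Il2rb is not known.

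**Figure D4:**
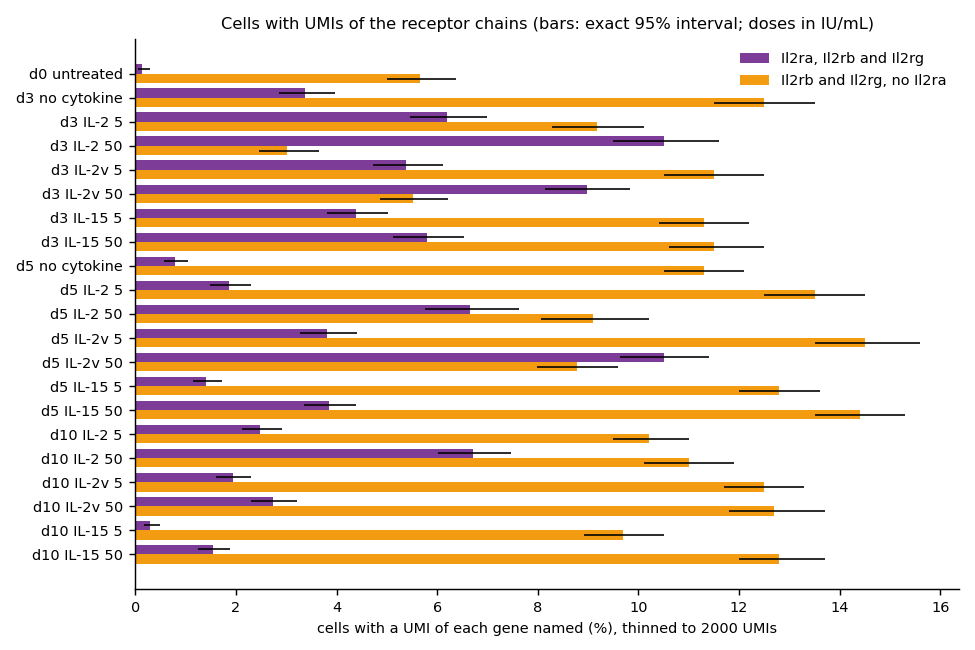
Share of cells (%) with a UMI of Il2ra, Il2rb and Il2rg (purple) and with Il2rb and Il2rg but no Il2ra (orange) in each library, thinned to 2000 UMIs per cell, with exact 95% intervals as bars. Purple exceeds orange on day 3 with 50 IU/mL IL-2 (10.5% against 3.02%), day 3 with 50 IU/mL IL-2v (8.97% against 5.51%) and day 5 with 50 IU/mL IL-2v (10.5% against 8.77%). These libraries also had the highest shares of cells with an Il2ra UMI, 75.3%, 62.9% and 52.4% in that order.

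On day 0 the Il2rb UMIs were uneven between cells. In the 569 cells with a UMI of Ccl5, a chemokine of memory and effector T cells, Il2rb was at 312 CPM (289 to 335), against 55.5 CPM (51.9 to 59.3) in the 4208 cells without. Il15ra was at 13.9 CPM (9.48 to 19.6) against 6.31 CPM (5.15 to 7.66), and Jak1 at 529 CPM (499 to 559) against 462 CPM (451 to 472). Il2rg was at 310 and 311 CPM, and the intervals of the other 4 members overlapped. The median UMIs per cell were 3884 and 3796. The 569 cells held 720 of the 1617 Il2rb UMIs of day 0, so the day 0 level of 87.6 CPM rests in part on them. Ccl5 was chosen for this split after its values in these libraries were known. The share of all genes that differ by this split was not computed, and the cells come from 1 library. In the comparison of cells with and without a Mki67 or Top2a UMI, Jak1 was lower in the former by non-overlapping intervals in 16 of 21 libraries and higher in 0, Il2rb lower in 11 and higher in 1, and Il2rg lower in 11 and higher in 0. Jak3 was higher in 6 and lower in 1. Il2ra was lower in 7 and higher in 4, and the STAT5 genes were neither in any library. The share of all genes that differ between these cells was not computed, so whether these counts are particular to the members is not known. Cells with such a UMI were also deeper, with a median of 4426.5 against 3789 UMIs on day 0 and 5372.5 against 3780.5 on day 3 without cytokine.

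Across the 21 libraries, Pearson correlations of log2(CPM + 1) describe how the members ran together. The libraries share culture days and, for some pairs, controls, so these values carry no test. Il2ra and Il2rb had r = 0.92, Il2rb and Jak3 0.79, Il2ra and Jak3 0.77, Il2rg and Jak1 0.80, and Stat5a and Stat5b 0.77. Il2ra, Il2rb and Jak3 ran opposite to Il2rg and Jak1: Il2ra and Il2rg had r = -0.84, Il2rb and Il2rg -0.84, Il2rb and Jak1 -0.75, Il2ra and Jak1 -0.73, Jak3 and Il2rg -0.76, and Jak3 and Jak1 -0.69. Over the 21 libraries, Stat5a and Stat5b had correlations between -0.19 and 0.15 with the chain genes Il2ra, Il2rb and Il2rg and the 2 kinases. In the 18 cytokine libraries, Il2ra and Il2rb had r = 0.87 and Il2ra and Il2rg -0.85, while Il2ra had r = 0.40 with Stat5a and 0.26 with Stat5b.

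**Figure D5:**
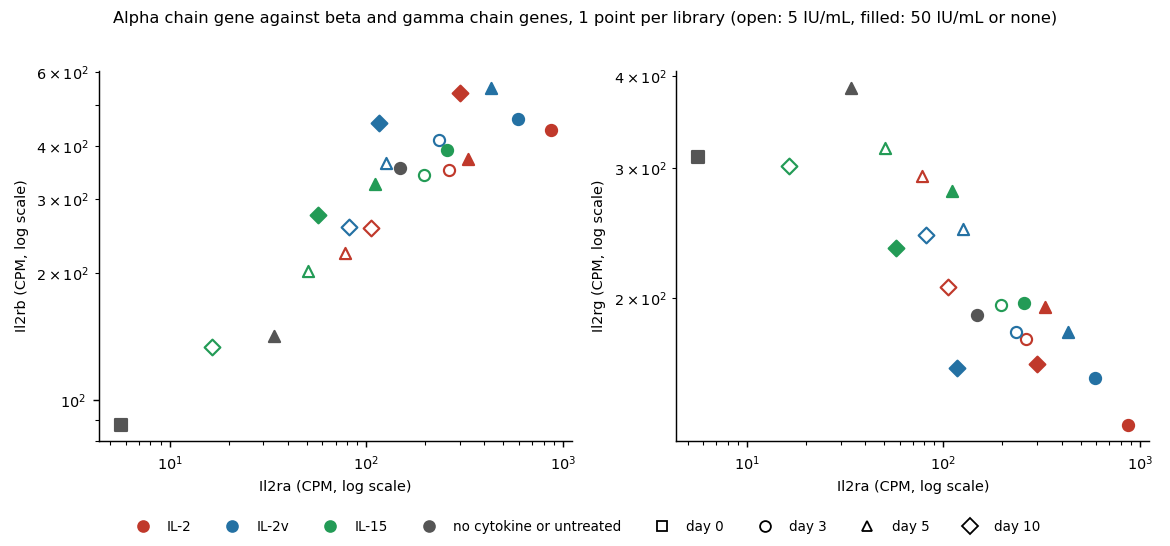
Il2rb (left) and Il2rg (right) against Il2ra in CPM on log axes, 1 point per library, coloured by cytokine and shaped by day (open, 5 IU/mL). Il2rb climbs with Il2ra from 87.6 CPM on day 0, while Il2rg is highest, 386 CPM, where Il2ra is low, at 34.0 CPM.

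By the highest correlation over the 21 libraries among the 5495 genes that averaged 20 CPM or more, those most like Il2ra included C1qtnf12 (r = 0.96), Stk39 (0.96), Il12rb2 (0.95) and Cisd1 (0.93). Those most like Il2rb were H2-Ab1 (0.95), Stk39 (0.94), Galk1 (0.93), Pkm (0.93) and Aldoc (0.93). Il2rg was most like Gm30054 (0.94), Trim34a (0.92), Pnpla7 (0.92), Clec2d (0.92) and Nmi (0.91), and Jak1 most like Card6 (0.95), Ramac (0.94), Pcmtd1 (0.94), Avl9 (0.94) and Saraf (0.93). For Jak3 they were Gsn, Irf8 and Tnfrsf9 (each 0.92), Prkcsh and Pafah1b3 (each 0.91). The genes most like Stat5a included Tox, Rbm38 and Map4k1 (each 0.90) and Zmiz2 (0.89), and those most like Stat5b included Usp19 (0.95), Pde4b (0.94), Mllt3 (0.92) and Zbtb44 (0.90). Il15ra, at its low level, reached no more than 0.77, with Nudt19, Gng10 and Tmem223, followed by Ptpn18 and Coa6 at 0.76. These names changed with the libraries used: from 1 to 3 of the 5 were in the list of the same member over the 18 cytokine libraries.

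The rest of the pathway was read from fixed lists, chosen as the members were with earlier results known. Feedback regulators were called higher with the cytokines against no cytokine in 2 of 7 tested with IL-2, 2 of 7 with IL-2v and 1 of 6 with IL-15. Over all genes tested, 1.77%, 6.25% and 0.377% were called higher in these comparisons. Cish, a STAT5-induced inhibitor of the receptor, had a mean of 68.8 CPM with IL-2 and 73.8 CPM with IL-2v, against 9.47 CPM without cytokine, with medians of 1.88 and 2.84. Socs2, another inhibitor, was called in each of the 3 (medians 1.86, 2.37 and 1.14). The list medians were 0.25, 0.38 and 0.13, beside 0.05, 0.17 and 0.04 over all genes tested. Cish was also higher with IL-2v than with IL-15 (1.92, 1 of 8 tested against 2.48% of all genes). Cish was higher at the higher IL-2v dose (1.10, 1 of 7 against 2.38%), and Socs2 at the higher IL-15 dose (1.55, 1 of 8 against 0.869%). On day 3 against day 0, Socs2 was called higher (3.14), and Socs3 (-1.60) and Sh2b3 (-1.96), which also restrain cytokine signalling, were called lower. Of 8 regulators tested, 1 was thus higher and 2 lower, against 11.1% and 8.31% of all genes.

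STAT5 target genes gave more calls with IL-2v. Of those tested, 3 of 9 were higher with IL-2 (Bcl2, Bcl2l1 and Pim1), 6 of 9 with IL-2v (the same 3 with Pim2, Myc and Lta) and 2 of 7 with IL-15 (Bcl2 and Bcl2l1), and none was lower. Over all genes the shares called higher were 1.77%, 6.25% and 0.377%. Bcl2, which protects cells from apoptosis, had means of 311 CPM with IL-2, 602 CPM with IL-2v and 379 CPM with IL-15, against 72.4 CPM without cytokine. The list medians were 0.94, 1.33 and 0.70, beside the same all-gene medians. Set directly against IL-2, IL-2v had 0 of 9 targets called in either direction, with a list median of 0.07 beside 0.06. Over all genes 1.04% were called higher and 0.274% lower there, so a count of 0 says little, and the larger count against no cytokine does not show a difference between them. With the higher dose, Prdm1, a regulator of effector differentiation, was called higher for IL-2 (1.68) and IL-2v (1.65), Bcl2l1 for IL-2 (1.34), Lta for IL-2v (2.11) and Pim1 for IL-15 (1.10). That was 2 of 10 tested with IL-2, 2 of 10 with IL-2v and 1 of 7 with IL-15. Over all genes, 4.29%, 2.38% and 0.869% were called higher in these dose steps. Between cytokines, Prdm1 (-1.18) and Lta (-1.63) were lower with IL-15 than with IL-2, and Prdm1 was higher with IL-2v than with IL-15 (1.15). These were 2 of 9 tested, against 1.70% of all genes lower, and 1 of 9, against 2.48% higher. Activation without cytokine gave calls both ways, with Pim1 (1.26), Pim2 (1.31) and Prdm1 (2.62) higher and Bcl2 (-1.18) and Ccnd2 (-1.08) lower on day 3 than on day 0. Of 7 targets tested, 3 were thus higher and 2 lower, against 11.1% and 8.31% of all genes. From day 3 to day 5 Pim1 (-1.09), Pim2 (-1.34) and Prdm1 (-2.26) were lower and Ccnd2 higher (1.26), and Socs2 was lower (-2.04). Of 7 targets tested, 3 were lower and 1 higher, and of 7 feedback regulators 1 was lower. Over all genes, 9.47% were called lower and 3.61% higher.

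Among adaptors and downstream kinases, Mapk3 was called higher on day 3 against day 0 (1.50) and lower on day 5 against day 3 (-1.13), both without cytokine, and 0 of 8 or 9 tested were called in the other 11 comparisons. In those 11, between 0.0538% and 6.25% of all genes tested were called in a direction, so counts of 0 say nothing particular about this list. Mapk3 was 1 of 9 tested on day 3 against day 0 and 1 of 8 on day 5 against day 3. Over all genes, 11.1% were called higher and 9.47% lower there. Of the other chains that pair with Il2rg, Il7r, the interleukin 7 receptor, was called lower with IL-2v against IL-2 (63.2 against 213 CPM, -2.01) and against no cytokine (-1.75), on day 3 against day 0 (-1.69) and at the higher IL-15 dose (-1.09), and higher on day 5 against day 3 without cytokine (2.34). Il7r was 1 of 3 tested in each. Over all genes, the shares called in the same direction were 0.274%, 1.05%, 8.31%, 0.181% and 3.61%, in that order. None of the 5 ligand genes in the list, among them Il2 and Il15, reached the level for testing.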

How the data were processed

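The authors deposited whole-number UMI counts per gene and cell barcode, 1 table per library. The submitters' processing notes name Cell Ranger, Seurat 4.0.1, Seurat 3.0.2 and the mm10 build, without roles. The extraction protocol in the labels describes sorted tumour cells and the growth protocol culture, and the libraries were treated as cultured cells. The growth protocol also names day 7, not analysed here. Groups came from the titles.

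Kept cells had at least 1000 UMIs and 500 genes and no more than 10% mitochondrial UMIs, and UMIs were summed per library as CPM (Python 3.11.15, numpy 2.4.6, pandas 2.3.3, SciPy 1.17.1). This filter kept 4456 of 4457 barcodes on day 3 without cytokine and 3250 of 3251 on day 5 with 50 IU/mL IL-2. Every deposited barcode of the other libraries was kept, so the alternative with all barcodes is nearly the main setting. A pseudocount of 1 CPM was used, which understates changes of low genes. Doublets were not called. Summed depth, 10589950 to 32648496 UMIs per library, sets the counting intervals. Each condition has 1 library, so no p-value was computed. TMM factors came from edgeR 4.0.16 in R 4.3.3. The call rule and the thinning were tested on simulated data. The members, lists and rules were chosen with earlier results of these data known. Genes named are the 8 members, called members of the fixed lists, and the 5 genes of highest correlation with each member, and results of some items are not reported here. Alternatives were other scalings (TMM, single-cell mean CPM, totals lacking mitochondrial and ribosomal protein genes), no expression filter, a pseudocount of 10, all barcodes, other cell filters, each day left out, and thinning to 1000 UMIs or none. Gene positions were GENCODE, and promoters RefSeq.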

Additional observations from a re-analysis of the deposited data

Results flagged for a closer look

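In 4 cases the pairs of a day moved one way and the pairs of another day the opposite way, with the counting interval of the fold excluding 1 in every one of those pairs. The difference between the days was not tested in any of them, and each rests on 2 pairs of libraries per day. They were picked from a search of all members, in each comparison between cytokines and in the dose step, over each pair of days. The share of all genes that would pass the same search was not computed. For Il2ra with IL-2v against IL-2, the mean log2 difference was -0.36 on day 3 and 0.53 on day 5, a difference of -0.89. Between day 5 and day 10, where the mean was -0.86, it was 1.39. Jak1 with IL-15 against IL-2 had means of 0.27 on day 3 and -0.23 on day 5, a difference of 0.49. For Stat5b in the same comparison the means were -0.50 on day 3 and 0.74 on day 10, a difference of -1.24. On day 10 Stat5b stood at 40.1 CPM with 5 IU/mL IL-15 against 27.8 CPM with 5 IU/mL IL-2, and at 27.8 CPM against 13.7 CPM at 50 IU/mL.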

How the results depend on the processing

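Of 153 alternative values of the counts, 143 stayed within 1.5 times the main count and 10 moved. Counts have no sign to reverse, and 0 of the alternative medians of single called members changed sign. The setting with all barcodes nearly repeated the main one. Of the 5 members called on day 5 against day 3 without cytokine, the count was 2 with a pseudocount of 10 and 3 among cells lacking Mki67 and Top2a UMIs. Without day 3 the counts against no cytokine went from 1 to 2 with IL-2, from 1 to 2 with IL-2v and from 0 to 1 with IL-15. Without day 5 the dose counts went from 1 to 2 with IL-2 and from 1 to 0 with IL-2v. The dose count with IL-15 went from 1 to 0 with TMM scaling, with a pseudocount of 10 (where the Il2ra median was 0.99) and without day 10. Where a day or cells were left out, fewer pairs or fewer cells entered those values. TMM scaling and the pseudocount of 10 used the same pairs and cells as the main setting. The cause was not tested further. The count for activation stayed within 1.5 times, yet Jak3 lost its call with totals lacking ribosomal protein and mitochondrial genes (0.96) and with a pseudocount of 10 (0.77), and Jak1 gained one with the former (-1.06). Libraries were set side by side in pairs matched by day, dose or cytokine, and no model over the whole layout was run. Depth limits Il15ra, Jak3, Stat5a and Stat5b most. Replicate error was not measured, so no difference between single libraries, of any size, can be set against it.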
